A study of Mus musculus with 48 samples.

Results

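The potassium channel genes described here are the 94 rows of the count table, of 48526 in all, whose Ensembl identifier belongs in GENCODE vM21 (mouse genome GRCm38) to a protein-coding gene with a symbol beginning with Kcn. They were chosen by name and not by any measured value, and 21760 rows of the table were protein-coding. Silent Kv subunits made up 10 of them, auxiliary subunits and one related regulator made up 17, and the other 67 code for pore-forming subunits. RNA-Seq libraries came from the cerebral cortex of 12 wild-type male C57BL/6JRj mice, 4 at 3 weeks (3w, mice 187 to 190), 4 at 5 months (5m, mice 191 to 194) and 4 at 18 months (18m, mice 195 to 198), grouped by age alone. Each mouse gave 4 libraries, 48 in all, which were the input RNA of total homogenate (input_TH), the ribosome pellet of total homogenate (SC_TH), the input RNA of synaptosomes (input_SYN) and the ribosome pellet of synaptosomes (SC_SYN). Synaptosomes are nerve endings that reseal when tissue is sheared, here taken from an interface of a sucrose gradient, and SC stands for RNA that went through a sucrose cushion together with ribosomes. TH lysates were spun to clear them before the cushion, a step the methods do not give for SYN. The age called 5m is given as 6 months in the sample labels and as 5 months in the protocol.

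Potassium channels carry K+ out of cells along its gradient, and in the brain they set the resting potential, end the action potential and limit repetitive firing. Voltage-gated Kv pores assemble as tetramers, inward rectifiers (Kir) hold the resting potential of neurons and clear K+ through astrocytes, K2P channels leak, and BK, SK and KNa channels open on intracellular calcium or sodium. Silent Kv subunits carry no current alone and change the gating of Kv2 channels, while Kv beta, KChIP, KCNE and BK beta subunits alter the gating and traffic of the pores they bind.

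What the pore-forming members share is the selectivity filter, the stretch that lines the narrowest part of the pore, and its coding bases are shown here for the genes on which the results turn. The longest complete coding sequence of each gene was searched in frame for codons of threonine or serine, then valine, isoleucine, leucine, threonine, methionine or cysteine, then glycine, then tyrosine, phenylalanine or leucine, then glycine. A match was found in 77 of the 77 pore-forming and silent Kv members, in 0 of the 17 auxiliary and other members, and in 321 of 21536 other protein-coding genes of the annotation (1.49%). Each of the 14 K2P members held 2 matches, the pair of pore loops that names the subfamily. The sequences, 5′ to 3′ on the coding strand of GENCODE transcripts, have the filter in capitals.
Kcna1: gtgtccatgaccACTGTGGGATACGGTgac
Kcnv1: acatccatgactACAGTAGGATATGGGgac
Kcnh3: agcagtctcaccAGTGTGGGCTTCGGCaac
Kcnt1: gtgactttctcaACTGTGGGCTTCGGTgat
Kcnj10: gaatcccagaccACCATCGGCTATGGCttc
Kcnk1, first pore: accgtgctctccACCACAGGCTATGGCcac
Kcnk1, second pore: atctccctgagcACCATCGGCCTGGGGgac

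These genes lie, on GRCm38, at chr6:126640397-126646384 (Kcna1, minus strand), chr15:45106284-45114920 (Kcnv1, minus), chr15:99224861-99242817 (Kcnh3, plus), chr2:25863734-25918273 (Kcnt1, plus), chr1:172341210-172374085 (Kcnj10, plus) and chr8:125995170-126030685 (Kcnk1, plus). The filters shown are in coding exons, at coding bases 1114 to 1128 in Kcna1, 1183 to 1197 in Kcnv1 and 382 to 396 in Kcnj10. Kcna1 codes for a delayed rectifier of axons, Kcnv1 for a silent Kv subunit, Kcnh3 for an ELK channel, Kcnt1 for a sodium-activated channel, Kcnj10 for the main inward rectifier of astrocytes and Kcnk1 for a leak channel. The silent subunit Kcnv1 keeps a complete filter pattern.

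Library totals ran from 1780267 to 18590040 counts and were lowest in input_SYN (1780267 to 7879536), so that low members are least precisely measured there. The labelled fractions were checked with marker lists, and 6 of 6 nuclear RNAs (Malat1 and others) were lower in SYN than in TH, by a median of 3.21 on the log2 scale in input and 2.93 in SC. Of 10 astrocyte markers, 10 were higher in SYN in both comparisons, with a median log2 fold change of 1.63 in input and 1.43 in SC. In bulk samples of this kind, fewer cells of a type and less RNA per cell cannot be told apart.

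In input_TH, the channel genes spanned the whole range from abundant to not detected. Levels are given as RPKM, counts relative to the length of the merged exons in kilobases and to the library total, scaled by trimmed mean of M-values (TMM) over all 48 libraries. 29 members had a mean above 10 RPKM, 37 lay between 1 and 10, 15 between 0.1 and 1, and 13 below 0.1. The 12 most abundant members held 46.5% of the summed RPKM of the 94 genes.

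Over the 12 libraries of all ages, an auxiliary subunit had the highest mean, Kcnab2 (chr4:152390742-152477871), which codes for the Kv beta subunit that escorts Kv1 channels to the axon, at 54.1 ± 5.93 RPKM (SD, n = 12). Kcnj4 (chr15:79483714-79505241), a strong inward rectifier of forebrain neurons, followed at 50.3 ± 4.66 RPKM, and the KChIP subunit Kcnip2, a partner of Kv4 channels, was in place 4 at 33.5 ± 1.87. Kcnab2 exceeded Kcnj4 in all 8 libraries of 5m and 18m, whereas Kcnj4 exceeded Kcnab2 in all 4 of 3w. Places 6 to 12 were held by Kcna1 (30.5 ± 2.06 RPKM), the G protein-gated Kcnj9 (26.5 ± 3.22), Kcnip3 (25.8 ± 1.92), the G protein-gated Kcnj3 (25.4 ± 1.96), the fast Kv3 channel Kcnc1 (24.8 ± 2.09), Kcnh3 (24.3 ± 3.34) and the Kv1 channel Kcna2 (24.2 ± 1.48). Neighbours in this lower stretch, from Kcna1 to Kcna2, changed places in at least 2 of the 12 libraries, so their order is not fixed beyond the spread between mice.

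The leading genes of the other 3 fractions were nearly the same: each shared 9 of its 12 most abundant members with input_TH, and in each the 3 that entered were Kcnf1 (a silent Kv subunit), Kcnj10 and Kcnk1. Kcnj10 moved furthest among these, from a mean of 22.2 RPKM and place 14 in input_TH to 39.0 in SC_TH, 87.3 in input_SYN and 110.0 RPKM in SC_SYN, where it was in place 3. Kcnip2 went the other way, from 33.5 RPKM in input_TH to 30.2 in SC_TH, 29.3 in input_SYN and 21.8 in SC_SYN, with places 4, 10, 24 and 27. By subfamily, Kir genes made up 18.6% of the members' summed RPKM in input_TH and 24.2% in SC_SYN, and the 4 KChIP genes 8.22% and 4.74%.

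**Figure D1:**
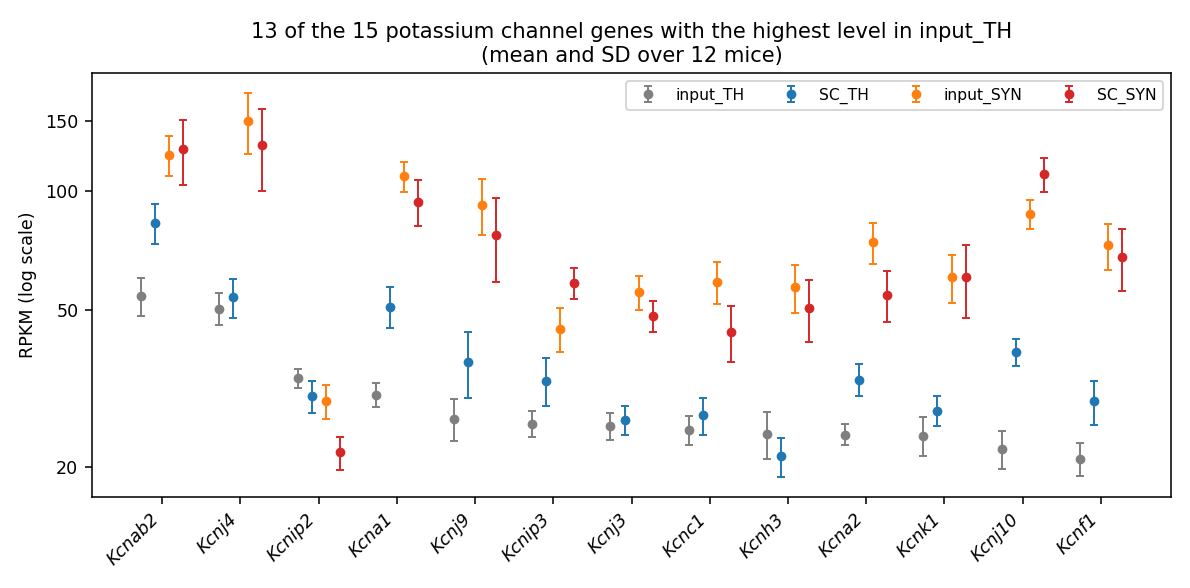
Level in RPKM (log axis) of 13 of the 15 potassium channel genes that were most abundant in input_TH, in each of the 4 fractions, as mean and SD over 12 mice. Kcnip2 had its lowest mean in SC_SYN (21.8 RPKM), whereas Kcnj10 had its highest there (110.0 RPKM).

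SYN against TH asks which transcripts are found in the synaptosome fraction more than in the tissue as a whole. That fraction does not hold nerve endings alone, and the astrocyte markers given above were higher in it too. Potassium channel genes were mostly higher in SYN: in input, 63 of 76 members tested were higher and 6 were lower, and in SC, 64 of 76 were higher and 9 lower (edgeR's quasi-likelihood test, adjusted p below 0.05, mean over the 3 ages). These calls were 90.8% and 96.1% of the members tested. Among all genes tested more were lower than higher, with 84.1% called in input (36.7% higher and 47.4% lower) and 79.2% called in SC (36.9% higher and 42.3% lower). The members' median log2 fold change was 1.21 in input, where that of all genes was -0.17, and 0.89 in SC, where that of all genes was -0.08. Relative to all genes the members' median thus lay 1.38 higher in input and 0.97 higher in SC. Scaling by library size in place of TMM moved the all-gene medians to -0.77 and -0.63. Such a change shifts all genes of a comparison nearly alike, so the relative medians could not move and are no check on the scaling. The calls could move, and 54 members were higher and 10 lower in input and 51 higher and 11 lower in SC. Under that scaling 1 called member changed direction, the SK channel gene Kcnn2 in input, which went from higher to lower.

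Pores and auxiliary subunits, each taken as a class, differed in these counts, though auxiliary subfamilies were not alike. Among pore-forming members outside the silent group, 50 of 56 were higher and 2 lower in input, and 51 were higher and 3 lower in SC. Of the 9 silent Kv members tested, 8 were higher in input and 9 in SC, and none was lower. Of the 11 auxiliary members, 5 were higher and 4 lower in input, with a median of 0.30, and 4 were higher and 6 lower in SC, with a median of -0.44. Of the 4 KChIP members 1 was higher and 3 lower in both comparisons. Of the 3 Kv beta members 1 was higher in both, with 1 lower in input and 2 in SC. Both BK beta members tested were higher in input and 1 in SC, with none lower. Of the 2 KCNE members 1 was higher in both and 1 lower in SC. All 22 members tested of the Kv1, Kv2, Kv3, Kv4, Kv7 and SK subfamilies were higher in both comparisons, of which 20 in input and 16 in SC were still called higher with library-size scaling, where Kcnn2 was lower in input. Under the same scaling the auxiliary members were split 4 higher and 5 lower in input and 3 higher and 7 lower in SC. The difference between roles was not tested, since genes of a role are not replicates.

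Astrocyte channels and Kcne1l had the largest log2 fold changes in both comparisons. Kcnj10 ran from 102 to 142 CPM (counts relative to the library total, on the 48-library scale used for comparing fractions) with a median of 119 in input_TH, and from 415 to 562 with a median of 466 in input_SYN. In the ribosome pellets Kcnj10 ran from 190 to 233 CPM (median 212) in SC_TH and from 488 to 712 (median 591) in SC_SYN. The SYN and TH ranges did not overlap in either comparison, and the log2 fold change of Kcnj10 was 1.99 ± 0.046 (SE, adjusted p = 1.41e-24) in input and 1.53 ± 0.052 (adjusted p = 1.13e-18) in SC. Kcnj16, whose product joins that of Kcnj10 in glial channels, had log2 fold changes of 1.84 ± 0.066 and 1.5 ± 0.078. Kcne1l (chrX:142304752-142306294), a small KCNE-like auxiliary gene, rose from 1.77 to 4.13 CPM in SC_TH to 7.43 to 22.7 in SC_SYN, a log2 fold change of 1.98 ± 0.17 (adjusted p = 3.85e-11), and by 1.92 ± 0.15 in input. The astrocyte list moved with these genes, with medians of its summed level at the 3 ages between 5238 and 6402 CPM in input_TH and between 11630 and 13630 in input_SYN, and its part in the result was not tested.

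Other channels were also higher in SYN, and the cell type their RNA came from was not tested. Kcna1 ran from 128 to 162 CPM in input_TH (median 147) and from 468 to 590 in input_SYN (median 511), without overlap, with a log2 fold change of 1.84 ± 0.049 (adjusted p = 1.97e-23). Kcnk2, a mechanically and thermally gated leak channel, rose in input by 1.82 ± 0.059, from a median of 35.6 CPM to one of 121. In SC the corresponding leaders were Kcnj4, from 91.8 to 135 CPM in SC_TH and from 174 to 391 in SC_SYN (log2 fold change 1.30 ± 0.088, adjusted p = 5.69e-13), and Kcnh3, from 96.2 to 143 and from 203 to 370 (1.28 ± 0.076, adjusted p = 4.58e-14). For both genes each SC_SYN library lay above each SC_TH library.

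Members that were lower in SYN were few, and most were auxiliary subunits or genes at very low levels. Kcnip4 (chr5:48389502-49524907), a KChIP subunit, ran from 21.0 to 33.8 CPM in input_TH and from 7.62 to 13.9 in input_SYN, and from 23.0 to 30.7 in SC_TH against 8.12 to 14.4 in SC_SYN. Its groups did not overlap in either comparison, and its log2 fold change was -1.33 ± 0.095 (adjusted p = 2.29e-13) in input and -1.12 ± 0.068 (adjusted p = 8.42e-14) in SC. Kcnab1, a Kv beta subunit that can inactivate Kv1 channels, had a log2 fold change of -0.52 ± 0.059 in input, where its ranges of 71.2 to 90.0 and 46.1 to 71.8 CPM met at the edge. Kcnip1 was lower by a log2 fold change of -0.43 ± 0.087 in input. Antisense genes cover 7.4% of the exonic bases of Kcnip4, whose reads the unstranded counts cannot separate.

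Kcnip2 was lower in both comparisons too, and Kcnab3 was lower in SC. The rest of the members that were lower in SYN were scarce. Kcnu1, the Slo3 channel known from sperm, ran from 0.547 to 2.1 CPM in SC_TH and from 0 to 0.906 in SC_SYN (log2 fold change -1.53 ± 0.27), and was lower in input as well (-1.87 ± 0.30). Kcnj8, the vascular KATP pore, had log2 fold changes of -1.10 ± 0.23 in input and -0.94 ± 0.19 in SC. The endothelial list was lower in SYN too, with medians at the 3 ages between 234 and 261 CPM in input_TH and between 13.3 and 18.7 in input_SYN, and its part in the Kcnj8 result was not tested. Kcnh6 was lower in SC by -0.87 ± 0.24 at 2.80 CPM or less, and Kcne2 by -1.14 ± 0.44 (adjusted p = 0.0199) in 8 of 12 mice, a call that was lost without mouse 191.

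The direction was the same at each age for nearly all members. In SC, 60 members were called higher at all 3 ages and 5 lower (Kcnab1, Kcnab3, Kcnip2, Kcnip4 and Kcnu1), and in input 58 were higher and 5 lower (Kcnab1, Kcnip1, Kcnip4, Kcnj8 and Kcnu1). Of all genes, between 29.9% and 32.1% were called higher in SC at a single age and between 32.2% and 35.8% lower. In input these shares were 31.7% to 32.9% and 39.3% to 40.1%, and shares at all 3 ages were not computed. Within mice, SC_SYN exceeded SC_TH in all 12 for 56 members and fell below it in all 12 for 6. For input the corresponding numbers were 54 and 6. Neither was computed for all genes, so these counts do not show how channel genes differ from other genes.

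**Figure D2:**
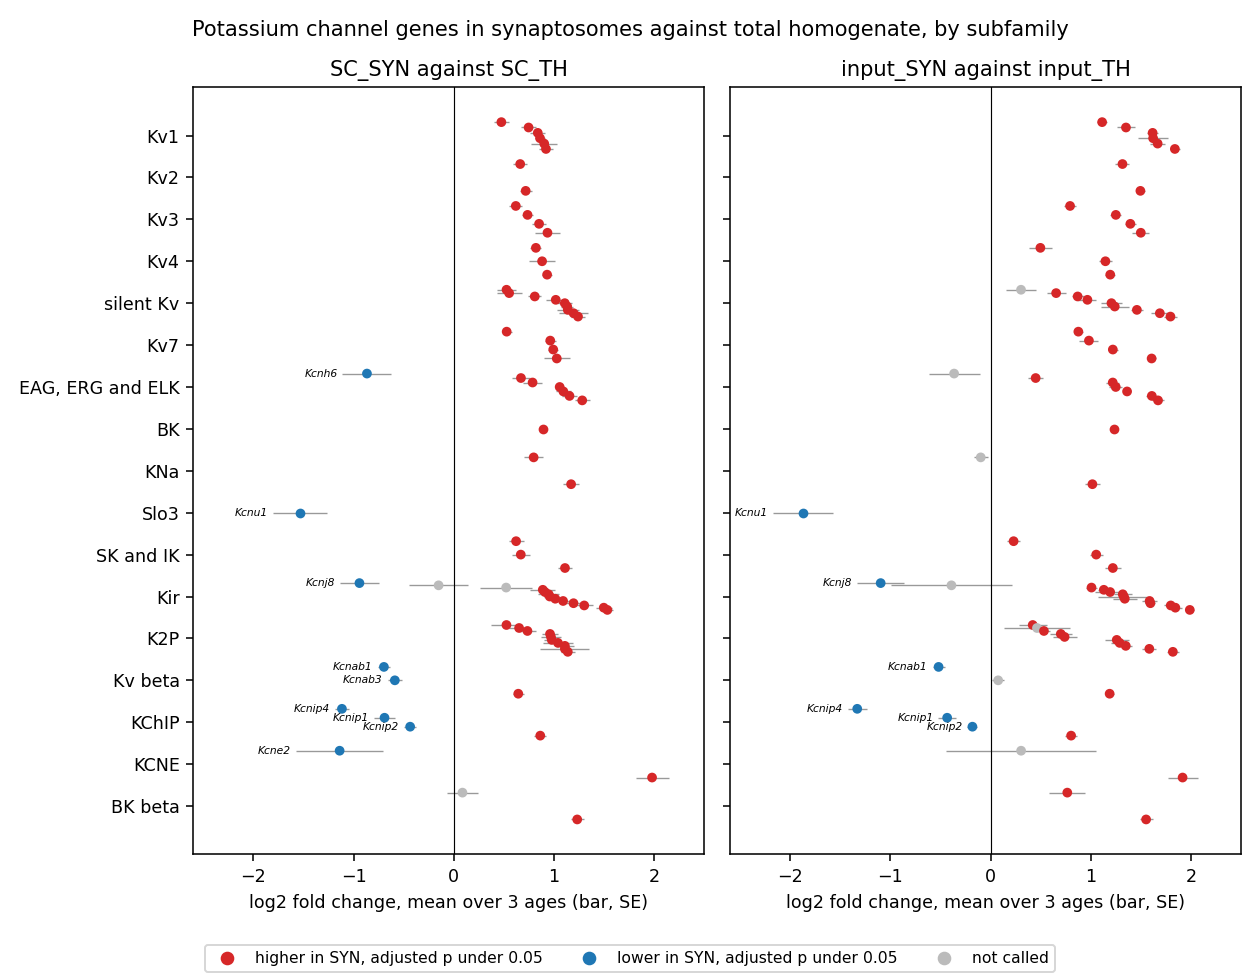
Log2 fold change of each tested member (point, with SE as bar) between SYN and TH, for SC on the left and input on the right, as the mean over 3 ages and grouped by subfamily. Red points were higher in SYN, blue points lower and grey points not called; the 9 blue points of SC include 5 auxiliary subunits of the Kv beta and KChIP groups and Kcne2.

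SC against input asks which transcripts sediment with ribosomes more than their share of the input. In TH, 37 of 78 members tested were higher in SC and 21 were lower, against 75.8% of all genes called (35.6% higher and 40.2% lower), with a median log2 fold change of 0.12 for the members and -0.042 for all genes. In SYN the counts leaned the other way, with 5 of 71 members higher and 34 lower. Of all genes 43.2% were called there (21.8% higher and 21.5% lower), and the medians were -0.24 and 0.011. Library-size scaling gave 30 higher and 25 lower in TH, among 13981 genes called, 5818 of them higher. In SYN it gave 5 higher and 32 lower, among 6200 genes, 3470 of them higher. The lean towards higher levels in SC of TH thus depends on the scaling. The 16 members that were higher in SC of TH and lower in SC of SYN were all pore-forming and included Kcna1, Kcna2, Kcna4, Kcnb2, Kcnc1, Kcnc4, Kcnd2, Kcnh1, Kcnh7, Kcnj9, Kcnj11, Kcnk2, Kcnk12, Kcnma1 and Kcnq5. Of the 71 members tested in SYN only 10 were auxiliary, so that most of any such group would be pore-forming. The share of all genes with this joint pattern was not computed. The difference between compartments was not tested for these genes.

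Kv1 genes led the rise in SC of TH, with 5 of 6 called higher and a median of 0.67. Kcna1 ran from 128 to 162 CPM in input_TH and from 204 to 292 in SC_TH, without overlap (log2 fold change 0.75 ± 0.051, adjusted p = 2.07e-13). Kcna3 ran from 9.74 to 16.2 CPM and from 14.3 to 24.3, with some overlap (0.76 ± 0.059, adjusted p = 4.17e-12). Their Kv beta partners rose as well, in 3 of 3 cases, with Kcnab2 going from a median of 306 to one of 482 CPM. In SYN, 4 of the 6 Kv1 genes were lower in SC, and none was higher.

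The members raised in SC in both compartments were 5: Kcnj10, Kcnj16, Kcne1l, Kcnip3 and Kcnab1. The share of all genes raised in both was not computed. Kcnj10 had log2 fold changes of 0.83 ± 0.034 (adjusted p = 5.59e-18) in TH and 0.32 ± 0.056 (adjusted p = 6.94e-05) in SYN, Kcnj16 of 0.84 ± 0.060 and 0.44 ± 0.086, and Kcne1l of 0.91 ± 0.15 and 0.93 ± 0.16. Of the 10 astrocyte markers, 9 were higher in SC of TH, with a list median of 0.59, and 7 were higher in SC of SYN, with a list median of 0.39; the part of astrocyte RNA in the channel values was not tested. Kcnip3, also known as a calcium-dependent transcriptional repressor, ran from 123 to 198 CPM in input_SYN and from 180 to 243 in SC_SYN (log2 fold change 0.37 ± 0.063). The call for Kcnab1 in SYN (0.18 ± 0.070, adjusted p = 0.0424) was lost in 9 of 12 fits that left out a mouse.

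Kcnt1 was the member most strongly lowered in SC of TH. It ran from 147 to 188 CPM in input_TH and from 67.5 to 96.0 in SC_TH, so that each pellet lay below each input library, and its log2 fold change was -1.01 ± 0.047 (adjusted p = 8.97e-17). Its relative Kcnt2 was lower in SC in TH and in SYN, and the ELK channel Kcnh4 was lower in TH by -0.53 ± 0.076. Further members lowered in SC of TH were the leak channel Kcnk6 (-0.44 ± 0.12), the silent subunit Kcns3 (-0.42 ± 0.11) and Kcnu1 (-0.52 ± 0.15). The 6 nuclear RNAs were all lower in SC of TH, by a median of 1.17 on the log2 scale, and the part of nuclear RNA in the channel values was not tested.

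In SYN the strongest falls in SC included subunits of large-conductance and M-current channels. Kcnmb4 (chr10:116417861-116473878), the neuronal BK beta subunit, ran from 73.3 to 123 CPM in input_SYN and from 43.3 to 72.9 in SC_SYN, the lowest input library lying just above the highest pellet, with a log2 fold change of -0.70 ± 0.081 (adjusted p = 2.02e-07). Antisense genes cover 31.5% of its exonic bases. Kcnq3, a subunit of the M-current, ran from 375 to 498 CPM and from 254 to 369, also without overlap (-0.50 ± 0.053). The leak channel Kcnk3 (-0.57 ± 0.12) and the BK subunit Kcnmb2 (-0.70 ± 0.21, with a lowest value of 0.922 CPM) were also among the leading 5. The fall was called at all 3 ages for 11 members, among them Kcna2, Kcnc1, Kcnc4, Kcnd3, Kcnip2, Kcnj11, Kcnmb4, Kcnq3 and Kcnq5, and no member was called higher at all 3. At a single age, between 6.7% and 10.3% of all genes were called lower, and the share at all 3 ages was not computed.

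**Figure D3:**
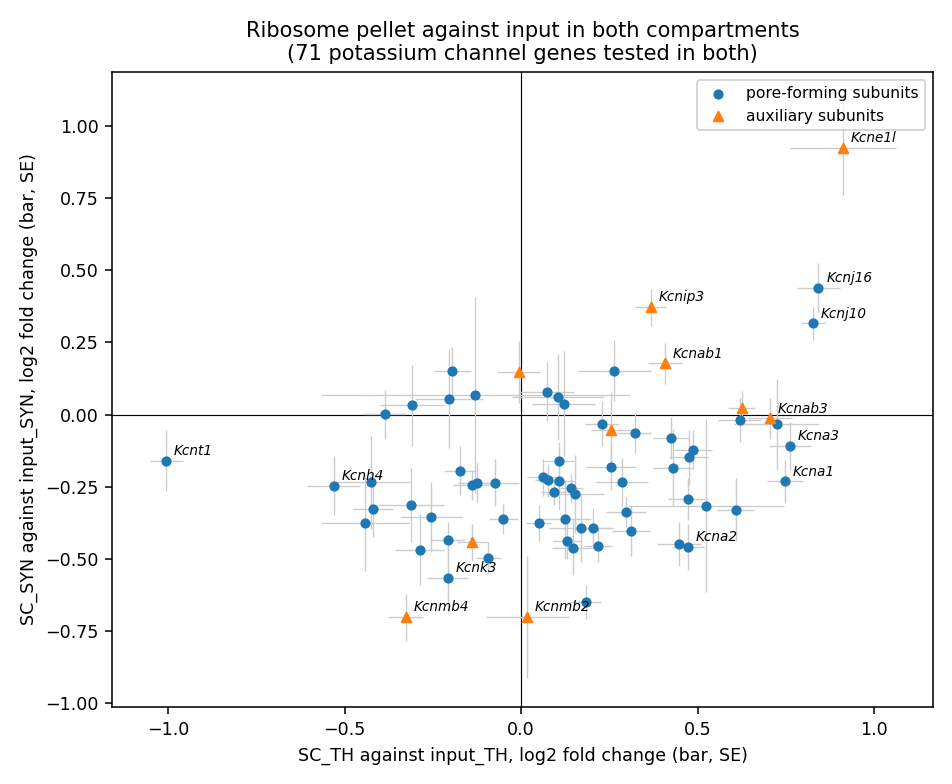
Log2 fold change of SC against input in TH (horizontal axis) and in SYN (vertical axis) for the 71 members tested in both, with SE as bars. Circles are pore-forming subunits and triangles auxiliary subunits; most points lie below 0 on the vertical axis, whereas on the horizontal axis they lie on both sides, from -1.01 (Kcnt1) to 0.91 (Kcne1l).

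Development was taken as 5m against 3w, within each fraction. In input_TH, 11 of 76 members were called, 2 higher and 9 lower, against 11.8% of all genes (4.76% higher and 7.05% lower). In SC_TH, 16 of 75 were called, 12 higher and 4 lower, against 17.9% (9.48% higher and 8.46% lower). In input_SYN, 3 of 69 were called, 2 higher and 1 lower, against 3.22% (1.28% higher and 1.94% lower), and in SC_SYN, 6 of 70, 2 higher and 4 lower, against 8.05% (4.02% in each direction). At 14.5%, 21.3%, 4.35% and 8.57% of the members, these shares are near those of all genes. The count in SC_TH was 27 without mouse 192 and 10 without mouse 194, that in input_SYN was 0 without mouse 192 or 194, 1 without 187 or 189 and 5 without 197, and that in SC_SYN was 2 without mouse 188, 189, 191, 192 or 193 and 3 without 190. With library-size scaling the split in input_TH was 6 higher and 8 lower and in SC_SYN 1 higher and 5 lower, and DESeq2 gave 4 higher and 5 lower in SC_SYN. Over the 4 fractions, 23 members were called at least once and 8 at least in 2 fractions. Such counts were not computed for all genes, so they do not show how channel genes differ from other genes.

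Kcnv1 was called lower in all 4 fractions. CPM in the age comparisons are scaled within the fraction. Kcnv1 stood at 71.7, 85.4, 77.3 and 87.9 CPM in the 3w libraries of input_TH and at 51.1, 59.0, 56.6 and 61.3 in those of 5m. In SC_SYN its values were 128, 187, 157 and 154 CPM at 3w and 86.2, 86.2, 102 and 102 at 5m. Each 5m library lay below each 3w library in both fractions. The log2 fold change of Kcnv1 was -0.50 ± 0.081 (adjusted p = 0.000628) in input_TH, -0.50 ± 0.077 (adjusted p = 0.000478) in SC_TH, -0.56 ± 0.12 (adjusted p = 0.0126) in input_SYN and -0.73 ± 0.12 (adjusted p = 0.00325) in SC_SYN. The call in input_SYN was lost without mouse 192 or 194, and the other 3 held in every alternative that gave an adjusted p.

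Kcnh5 (chr12:74897220-75177332), an EAG channel, fell in 3 fractions. In input_TH it stood at 68.3, 74.0, 71.9 and 82.7 CPM at 3w and at 55.1, 57.7, 63.3 and 61.6 at 5m, without overlap, and its log2 fold change was -0.32 ± 0.067 there, -0.44 ± 0.12 in SC_TH and -0.52 ± 0.13 in SC_SYN. In input_SYN it was -0.46 ± 0.13 (adjusted p = 0.065). The call for Kcnh5 was lost without mouse 190, 191 or 194 in SC_TH and in 6 of 12 fits in SC_SYN. Kcna4, an A-type Kv1 channel of axons, fell by 0.31 ± 0.097 on the log2 scale in SC_TH and by 0.54 ± 0.16 in SC_SYN, calls lost in 5 and 7 of 17 alternatives, among them the fits without mouse 188, 191 or 194 in both fractions. Kcnk2 fell by 0.55 ± 0.14 in SC_SYN, from 94.8, 102, 107 and 76.7 CPM at 3w to 55.6, 64.1, 62.9 and 76.4 at 5m, a call lost without mouse 188, 189, 191, 192 or 193.

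Kcna5 (chr6:126532551-126535412), a delayed rectifier, rose at a low level. It stood at 6.29, 3.82, 4.61 and 2.94 CPM at 3w and at 7.69, 6.92, 9.54 and 10.1 at 5m in SC_TH (log2 fold change 0.92 ± 0.20, adjusted p = 0.00508), and at 7.09, 7.85, 3.22 and 1.68 and then 13.8, 9.66, 13.6 and 12.0 in input_SYN (1.11 ± 0.29, adjusted p = 0.0434). The 5m libraries were all higher in both fractions, but the call in input_SYN was lost in 8 of 12 fits without a mouse. The A-type channel Kcnd3 rose in input_TH (0.24 ± 0.053) and SC_TH (0.39 ± 0.075), and the Kv beta gene Kcnab2 in SC_TH (0.31 ± 0.066) and SC_SYN (0.42 ± 0.12, adjusted p = 0.0459), the latter lost in 10 of 12 such fits.

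Further rises in SC_TH included members at low levels. The ERG channel gene Kcnh6 went from 1.30, 0.674, 1.54 and 1.31 CPM at 3w to 2.89, 2.87, 3.14 and 2.81 at 5m (log2 fold change 1.23 ± 0.26, adjusted p = 0.00414). The silent subunits Kcng2 (log2 fold change 0.82 ± 0.17) and Kcng3 (0.60 ± 0.16, lost without mouse 188, 190 or 194) rose too, the latter from 11.1, 8.53, 9.91 and 5.89 to 13.5, 11.1, 15.1 and 15.1 CPM. Kcna3, Kcnc1, Kcnf1 and Kcnh3 were also called higher there.

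The falls in input_TH were spread over several subfamilies. The silent subunit Kcng4 went from 7.98, 11.2, 10.4 and 10.6 CPM at 3w to 7.43, 6.51, 6.43 and 7.34 at 5m (log2 fold change -0.53 ± 0.12, adjusted p = 0.00791), Kcnmb4 from 43.9, 46.1, 42.0 and 48.5 to 33.3, 39.8, 34.4 and 30.7 (-0.39 ± 0.073, adjusted p = 0.002), and the acid-sensitive leak channel Kcnk9 from 38.4, 45.3, 41.8 and 42.2 to 30.0, 35.3, 35.4 and 32.7 (-0.33 ± 0.079, adjusted p = 0.0112). All 5m libraries lay below all 3w libraries for these 3 genes. Kcnh1, Kcnh3, Kcnj10 and Kcnk1 were the others called lower, Kcnh3 with overlap between the ages. Of 10 oligodendrocyte markers, 10 were lower at the same step in input_TH and 9 in each of the other fractions, with list medians between -1.45 and -1.0 on the log2 scale, and their part in the channel values was not tested.

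**Figure D4:**
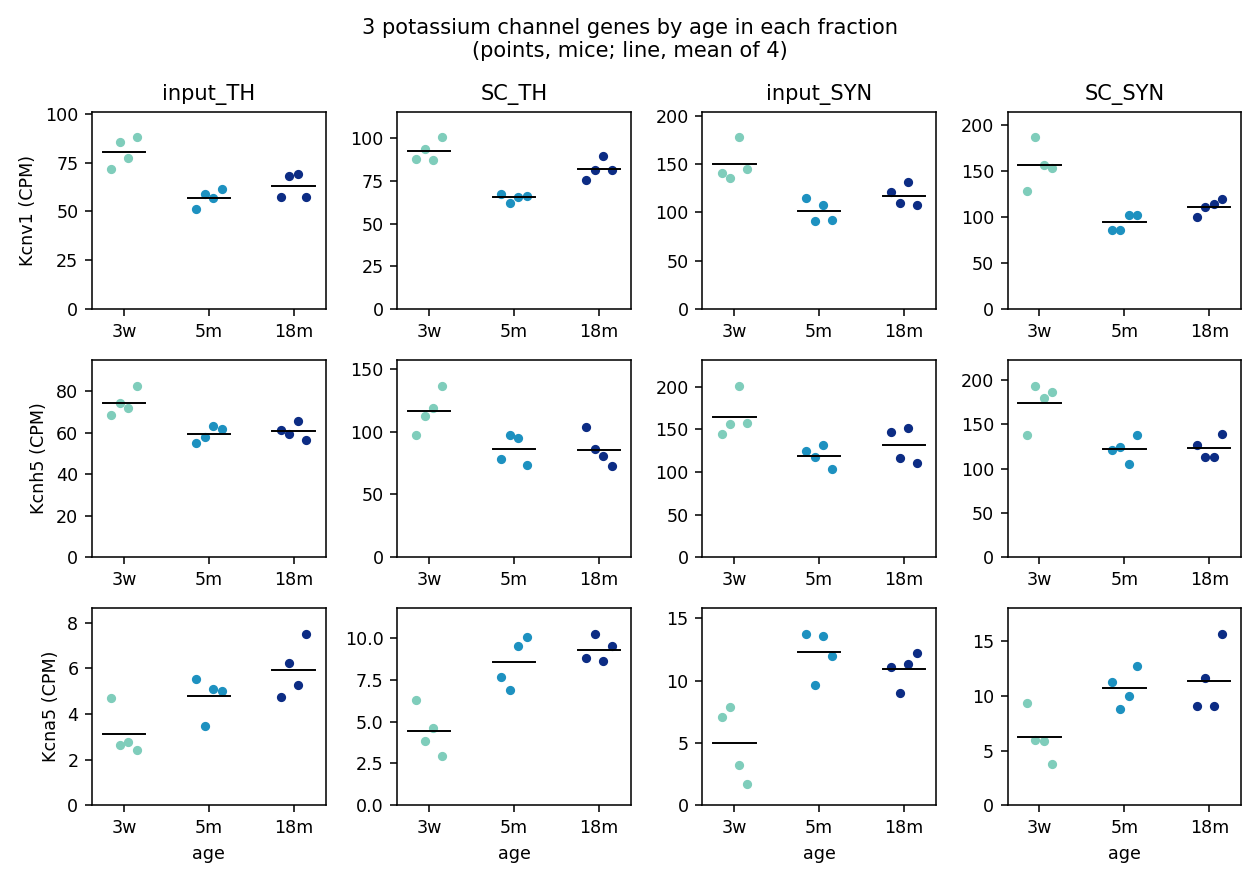
CPM by age of Kcnv1, Kcnh5 and Kcna5 in each fraction, with a point for each mouse and a line at the mean of 4; CPM are scaled within the fraction and each panel starts at 0. In SC_TH, Kcnv1 fell from 87.2 or more at 3w to 67.0 or less at 5m and lay between 75.6 and 89.7 at 18m.

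Aging was taken as 18m against 5m. In input_TH, 12 of 76 members were called, 9 higher and 3 lower, against 15.5% of all genes (8.18% higher and 7.35% lower), and the members' median log2 fold change was 0.11 where that of all genes was -0.00014. Library-size scaling gave 5 higher and 6 lower, so the lean towards higher levels depends on the scaling. The count in input_TH was 3 without mouse 196, 4 without 194 or 198, 5 without 193 and 6 without 192. In SC_TH, 2 of 75 members were called, both higher, against 2.17% (0.377% higher and 1.79% lower), a count that was 0 without mouse 193, 197 or 198 and 1 without 189, 192, 194, 195 or 196. No member was called by edgeR, fitted within the fraction, in input_SYN, against 0.139% of all genes, or in SC_SYN, against 0.014%, where 6 of 69 and 18 of 70 members had an unadjusted p below 0.05. DESeq2 called 7 members in SC_SYN, of which Kcnab1 was higher and Kcnf1, Kcng1, Kcnh1, Kcnj9, Kcnk1 and Kcnk9 were lower, and none in input_SYN. Of all genes, DESeq2 called 322 in SC_SYN, 139 of them higher, and 64 in input_SYN. In the edgeR fit over all 48 libraries 13 members were called in SC_SYN, 2 higher and 11 lower, among 1457 genes in all, 620 of them higher. Without a filter Kcnj2 was called higher in input_SYN, among 102 genes in all.

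A pair of EAG-family genes led the rise in input_TH. Kcnh2, the ERG channel best known from the heart, stood at 35.0, 31.7, 34.2 and 32.0 CPM at 5m and at 42.8, 46.3, 41.0 and 46.3 at 18m, and Kcnh3 at 143, 147, 159 and 145 and then at 172, 212, 210 and 193. Every 18m library was above every 5m library for both genes. Their log2 fold changes were 0.41 ± 0.066 and 0.41 ± 0.066 (both adjusted p = 0.00243), and both calls were lost only in the fit over all 48 libraries.

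The other members called in input_TH at this step held less well. Kcnk12 (chr17:87745801-87797994), a silent K2P subunit, stood at 19.9, 18.7, 17.3 and 17.3 CPM at 5m and at 21.3, 29.2, 21.9 and 24.2 at 18m, without overlap (log2 fold change 0.40 ± 0.12, adjusted p = 0.0338), but its GC content of 69.4% is high and removing the trend of all genes on GC content and length took its log2 fold change to -0.049. The call for Kcnk12 was also lost in 6 of 17 alternatives. Kcna3, a Kv1 channel, stood at 13.7, 16, 13.4 and 12.0 and then at 17.1, 16.8, 16.6 and 19.9 CPM (0.36 ± 0.10, adjusted p = 0.0242). The call for Kcna3 was lost without mouse 193, 194 or 198 and in the fit over all 48 libraries. Kcng4, which had fallen in development, rose by 0.39 ± 0.12 to between 8.48 and 9.71 CPM, a call lost in 11 of 17 alternatives, among them library-size scaling and DESeq2. Lower members were Kcnu1, from 2.23 to 3.56 CPM at 5m and from 1.45 to 1.94 at 18m (-0.73 ± 0.21), Kcnb2 (-0.23 ± 0.070) and Kcnq3 (-0.18 ± 0.058), calls lost in 6, 8 and 10 of 17 alternatives. Kcna6, Kcnj4, Kcnk1 and Kcnk3 were the other members called higher.

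In SC_TH, Kcnv1 rose again after its developmental fall, from 67.0, 62.2, 65.5 and 66.3 CPM at 5m to 75.6, 81.5, 89.7 and 81.3 at 18m, without overlap (log2 fold change 0.33 ± 0.074, adjusted p = 0.0288). Its log2 fold changes in input_TH, input_SYN and SC_SYN were 0.14, 0.21 and 0.24, with adjusted p of 0.245, 0.593 and 0.33. The strong inward rectifier Kcnj2 went from 16.1, 19.9, 18.3 and 16.6 to 27.5, 23.4, 24.1 and 23.2 CPM (0.48 ± 0.12, adjusted p = 0.0454). Of the 6 nuclear RNAs, 5 were lower at 18m in SC_TH, where their summed level ran from 9064 to 13180 CPM at 5m and from 6468 to 7701 at 18m, and the part of nuclear RNA in these values was not tested. Both calls were lost in the fit over all 48 libraries, that for Kcnj2 also in 9 of 12 fits that left out a mouse and that for Kcnv1 without mouse 192, 193, 196, 197 or 198.

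Whether an age change differed between fractions was tested as an interaction. In input, the SYN and TH changes from 5m to 18m differed for 1 member, Kcnk12, against 2.42% of all genes, with a log2 difference of -0.67 ± 0.17 (adjusted p = 0.0340). Kcnk12 rose in input_TH as given above and stood at 42.1, 50.6, 43.8 and 48.3 and then at 34.6, 41.0, 32.7 and 41.7 CPM in input_SYN, where the 18m libraries were all lower. With the mouse as a block, 5 members were called, among 661 genes in all. The 5 all had a change in SYN below that in TH (Kcnh2, Kcnh3, Kcnj4, Kcnj9 and Kcnk12), whereas library-size scaling called 1 in each direction, among 623 genes. The count was 0 without mouse 192, 193, 194, 195 or 197 and 2 without 198.

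From 3w to 5m in TH, the SC and input changes differed for 2 members, against 2.33% of all genes, and Kcnh3 was among them. It fell in input_TH, from 159, 181, 174 and 174 to 143, 147, 159 and 145 CPM, and rose in SC_TH, from 116, 113, 141 and 141 to 157, 147, 146 and 171, a log2 difference of 0.48 ± 0.11 (adjusted p = 0.0285). With the mouse as a block, 6 members were called, out of 664 genes called in all. Among the 6 were Kcnf1, Kcng1, Kcnh3 and Kcnj4, with a higher log2 change in SC, and Kcne2, with a lower one. The count was 0 without mouse 187, 188 or 194, 1 without 190, 191 or 197, 4 without 189, 5 without 195 and 6 without 192.

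The other interactions called no member with edgeR in the fit over the 24 libraries with TMM, the filter and no block. For SC against input in TH from 5m to 18m, 1.78% of all genes were called and 9 members had an unadjusted p below 0.05. With the mouse as a block, Kcnh3 and Kcnj9 were called, among 374 genes, both with a lower change in SC. Without a filter Kcnh3 and Kcnj9 were called as well, among 573 genes, and with library-size scaling Kcnq3, among 297, with a higher change in SC. Without mouse 191 the count was 4, without 195 it was 2, and without 187, 188 or 190 it was 1. SYN against TH in input from 3w to 5m called 0.0224% of all genes and had 8 members at an unadjusted p below 0.05, and SYN against TH in SC called 0.0301% from 3w to 5m and 0% from 5m to 18m, with 4 and 13 such members. SC against input in SYN called 0% of all genes at both steps, with 0 and 1 such members. For SYN against TH in SC from 5m to 18m, DESeq2 called 3 members among 272 genes, and the edgeR fit over all 48 libraries called Kcnk1 among 237.

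Kcne2 (chr16:92292389-92298129), an auxiliary subunit made in quantity by the choroid plexus, had the largest log2 fold change among the members called in an age comparison. In SC_TH it stood at 2.38, 7.64, 6.70 and 7.52 CPM at 3w and at 1.85, 1.69, 0.465 and 0.117 at 5m, without overlap (log2 fold change -2.47 ± 0.57, adjusted p = 0.00734, called in every alternative that gave an adjusted p). Ttr, the transthyretin gene that marks choroid plexus, stood in the same libraries at 351, 624, 1107 and 655 CPM at 3w and at 413, 235, 45.8 and 13.7 at 5m. Of the 4 choroid plexus markers, 2 were called lower at this step and the median log2 fold change of the list was -1.38, with none of the 4 at 0 in all libraries of a group. In input_TH the highest Kcne2 values, 4.94 CPM in mouse 195 and 3.10 in mouse 191, were in the libraries with the highest Ttr, 1539 and 969 CPM, and the other 10 libraries lay at or below 1.07 and 642 CPM. Kcnj13, an inward rectifier also known from that epithelium, stood at 10.1 and 11.7 CPM in the input_TH libraries of mice 195 and 191 and at 4.17 or less in the other 10, though the antisense gene Gigyf2 covers 49.1% of its exonic bases. How much choroid plexus each dissected cortex held was not tested beyond these markers.

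**Figure D5:**
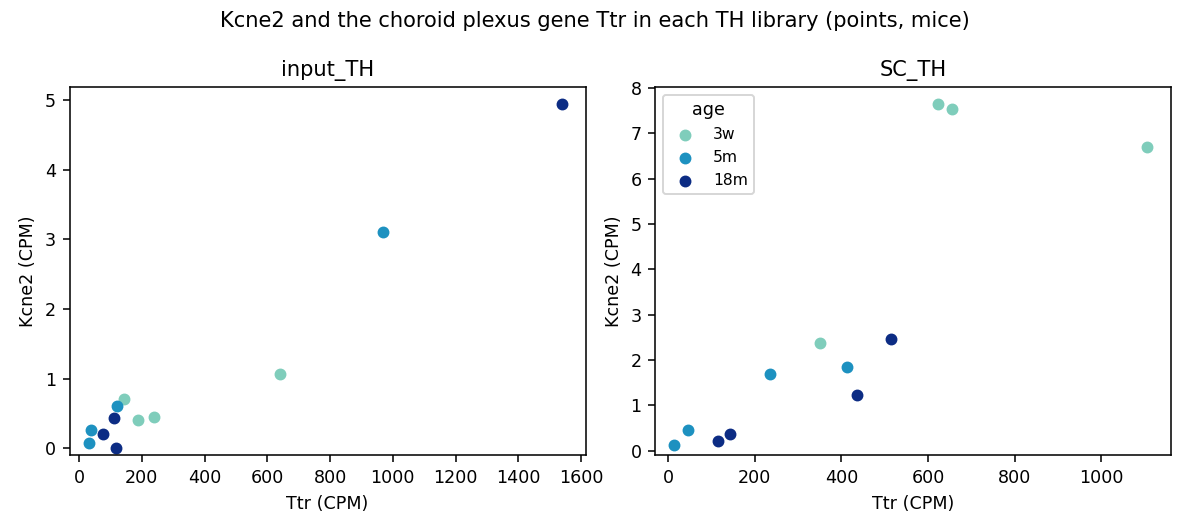
CPM of Kcne2 (vertical axis) against CPM of the choroid plexus gene Ttr (horizontal axis) in the 12 input_TH and the 12 SC_TH libraries, coloured by age. The libraries with the most Kcne2 were also rich in Ttr, such as mouse 195 at 4.94 and 1539 CPM in input_TH.

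Genes that work with these channels were counted from a list of 34 partners and potassium transporters. In SYN against TH, 28 were higher and 3 lower in input and 25 higher and 4 lower in SC, with median log2 fold changes of 1.18 and 1.12. Among them were Cntnap2, which clusters Kv1 channels beside the node of Ranvier (1.74 in input and 1.61 in SC), and the Kv4 partner Dpp6 (1.94 and 1.55). The lower ones in SC were the Kir6 partner Abcc9 (-0.99), the Kv7 scaffold Akap5 (-0.99), Calm2 (-0.89) and the Kv2 tether Vapa (-0.50). From 3w to 5m, none of these partners was higher and 7 were lower in input_TH, 6 were higher and 5 lower in SC_TH, 1 was higher and 3 lower in input_SYN, and 3 were higher and 1 lower in SC_SYN. The chloride importer gene Slc12a2 was called lower in all 4 fractions, with log2 fold changes between -0.93 and -0.35. From 5m to 18m, 3 were higher and 1 lower in input_TH, and none was called in the other fractions.

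Of the 94 members, 78 passed the filter on low counts in at least 1 comparison and 16 in none. The latter were Kcna7, Kcna10, Kcne1, Kcne3, Kcne4, Kcnh8, Kcnj1, Kcnj15, Kcnk7, Kcnk15, Kcnk16, Kcnk18, Kcnmb3, Kcnn4, Kcnrg and Kcnv2, with between 0 (Kcnk16) and 243 counts over the 48 libraries. Without a filter, 4 of them were called between fractions: Kcnk15 higher in SYN in input and in SC, Kcnrg higher in SYN in SC, Kcna10 lower in SYN in input, and Kcnn4 lower in SC of TH. Among the 78, 32 were called in at least 1 of the 8 age comparisons and 46 in none. The corresponding share of all genes was not computed.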

How the data were processed

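Counts per gene in 48 libraries were deposited by the authors as one table of raw counts. They had prepared rRNA-depleted, directional libraries with UMI adaptors, demultiplexed the reads with bcl2fastq 2.20.0.422, aligned them with TopHat2 2.1 to GRCm38 and counted them with featureCounts without regard to strand, so reads of antisense genes cannot be separated. Use of the UMIs, and which of the sequencing runs held which library, are not given in the sources used here.

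Symbols, exonic lengths and biotypes came from GENCODE vM21 (48144 of 48526 identifiers matched, the rest holding 0.0596% of counts). Each comparison was fitted over all genes with edgeR 4.0.16 in R 4.3.3 (quasi-likelihood test, TMM, filterByExpr with a minimum count of 10 and total of 15, Benjamini-Hochberg adjusted p below 0.05). Age comparisons were fitted within a fraction (12 libraries), fraction comparisons (means over the 3 ages) and interactions over 24 libraries. Values are log2 fold change ± SE. Mice are the replicates (4 per group), and libraries of 1 mouse are paired by design. Same-mouse deviations correlated weakly (medians -0.043 to 0.216). Replicate libraries differed by more than sampling noise (chi-square over degrees of freedom 1.98 to 32.2). Alternatives were library-size scaling, DESeq2 1.42.0, no filter, all 48 libraries in 1 fit, the mouse as a block, each mouse left out, and removal of a GC and length trend. The last gave a log2 fold change without an adjusted p, so no call could be lost there. The fits were tested on simulated data, in which 200 genes were changed and the rest left alike in all groups. Of planted log2 changes of 0.75, 65 of 95 were recovered for input_TH and 46 of 103 for SC_SYN from 3w to 5m. For SC_SYN against SC_TH 92 of 109 were recovered, and 57 of 103 for the interaction of SC and input in TH from 3w to 5m. The real fraction comparisons, with many genes called, differ from that setting.

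The members and all lists were chosen with earlier results of these data known. Members named with values are up to 5 called in each direction of a comparison by log2 fold change, those called in an interaction, and the 12 with the highest RPKM in input_TH; other called members are listed by name, or with values where they share a family or cell type, chosen after their values were seen. Some genes that these rules name are not reported here.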

Additional observations from a re-analysis of the deposited data

Results flagged for a closer look

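Of 92 groups of 4 libraries tested with Dixon's criterion, 4 held a library far from the other 3, and chance alone gives about 1 in 20. Kcna3 in input_TH at 18m was 19.9 CPM in mouse 198 against 16.6 to 17.1 in the other 3. Kcna4 in SC_SYN at 5m was 66.2 CPM in mouse 194 against 52.8 to 54.5. Total counts of input_TH at 3w were 13225000 in mouse 187 against 9827200 to 10385000. The members' summed share in input_TH at 5m was 6181 CPM in mouse 191 against 6715 to 6801, in the library that also held 969 CPM of Ttr.

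The change with age differed between fractions by the interaction test for Kcnk12, in the comparison of SYN against TH in input from 5m to 18m (log2 difference -0.67), and for Kcnh3 (0.48), in that of SC against input in TH from 3w to 5m. Leaving out a mouse, or fitting all 48 libraries together, lost the call in 7 of 18 alternatives for Kcnk12 and in 4 of 18 for Kcnh3.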

How the results depend on the processing

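Fraction comparisons were the most stable. Without 1 mouse, counts of members called lay between 72 and 74 for SC_SYN against SC_TH, 69 and 71 for input_SYN against input_TH, 53 and 60 for SC_TH against input_TH, and 35 and 40 for SC_SYN against input_SYN. Age counts ranged more, from 8 to 14 in input_TH from 3w to 5m, 3 to 16 in input_TH from 5m to 18m, 10 to 27 and 0 to 2 in SC_TH at the same steps, 0 to 5 in input_SYN and 2 to 9 in SC_SYN from 3w to 5m. Interactions ranged from 0 to 2 for SYN against TH in input from 5m to 18m, 0 to 6 for SC against input in TH from 3w to 5m and 0 to 4 from 5m to 18m, and stayed at 0 for the rest, as did aging in input_SYN and SC_SYN.

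The fit over all 48 libraries called 3 and 0 members in input_TH at the 2 steps, 1 in SC_TH from 5m to 18m, 6 in input_SYN and 22 in SC_SYN from 3w to 5m, 13 in SC_SYN from 5m to 18m, 1 for SYN against TH in SC from 5m to 18m, 0 for the same in input and 0 for SC against input in TH from 3w to 5m. DESeq2 called 5 in input_SYN from 3w to 5m, 7 in SC_SYN from 5m to 18m, 3 and 4 for SYN against TH from 5m to 18m in SC and in input, and 7 and 3 for SC against input in TH at the 2 steps. Without a filter, 5 were called in input_SYN from 3w to 5m, 1 (Kcnj2) from 5m to 18m, 2 for SYN against TH in input from 5m to 18m, and 9 and 2 for SC against input in TH. Library-size scaling gave 2 for SYN against TH in input from 5m to 18m and 1 for SC against input in TH from 5m to 18m. With the mouse as a block, 5 were called for SYN against TH in input from 5m to 18m and 6 and 2 for SC against input in TH at the 2 steps; it moved no other count by over 1.5 times. Of the values of named members under the alternatives, 1208 kept direction and, where tested, the call, 160 lost the call and 1 turned, Kcnk12 in input_TH from 5m to 18m (-0.049 with the GC and length trend removed). Values with that trend removed carry no adjusted p and were counted by direction alone. Counts over all genes moved with the setting too, such as from 2 to 1457 in SC_SYN from 5m to 18m in the fit over all 48 libraries. Apart from fits that drop mice, the cause of these changes was not tested.

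Input_SYN had the fewest counts, and members at a few CPM rest there on few counts.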
